A study of Mus musculus with 12 samples.

Results

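The 36 mitosis genes described here encode the proteins that carry a cell through mitosis: the mitotic cyclins with Cdk1 and the phosphatases that switch it on, the mitotic kinases, the spindle checkpoint, the kinetochore, the chromosomal passenger complex, the motors of the spindle and the machinery of cytokinesis. They were chosen by name, and all 36 were found among the 21938 protein-coding genes of the annotation. The assay was CUT&RUN, in which a nuclease tethered to an antibody cuts out the DNA around its target for sequencing, in C2C12, mouse myoblasts grown as a line that stops dividing and fuses into multinucleated myotubes when serum is lowered. The groups were day 0 cells, cells at day 1 of differentiation, day 5 myotubes and day 5 reserve cells, the cells that stay single, and the 2 fractions of day 5 were separated with mild trypsin. All 4 groups are the same line with no treatment other than medium with 2% horse serum for differentiation, per the labels. The titles give the day 5 fractions as abbreviations, taken here for the myotubes and reserve cells that the design text names. Each group had 1 library for MBD2, 1 for H3K4me3 and 1 for a control IgG, and the IgG libraries were not analysed here.

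Mitotic genes are switched on together late in the cell cycle. In resting cells the MuvB core of the DREAM complex represses the family, and in dividing cells the same core activates it together with the transcription factors encoded by Mybl2 and Foxm1. MuvB reads a promoter element called the CHR, which often lies near CCAAT boxes bound by NF-Y. H3K4me3 is a histone mark laid down around the starts of active genes and spreads into the gene body. MBD2 is a protein that binds methylated CpG and recruits the NuRD repressor complex. Myoblasts leave the cell cycle before they fuse, and myotube nuclei do not normally divide again.

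The H3K4me3 lists held 19218 peaks at day 0, 17665 at day 1, 26034 in day 5 myotubes and 15920 in day 5 reserve cells, and the MBD2 lists 14948, 452, 288 and 111 peaks in that order. The sources used here do not give read totals. The lowest local background of each list, which depends on depth, lay between 1.08 and 1.47 fragments per base for H3K4me3 and between 0.286 and 0.947 for MBD2. The labelled states were checked against 12 muscle differentiation markers such as Myog, Ckm and Acta1: none had promoter H3K4me3 at day 0, all 12 did at day 1 and in myotubes, and 11 did in reserve cells. The bases under H3K4me3 within 5 kb of their 5′ ends had medians of 0, 2770.5, 6967 and 1868 bp in that order. With 1 library per group nothing can be checked against replicates, so no p-values are given. Intervals are exact Clopper-Pearson 95% intervals and cover counting error only. They treat genes as independent draws, but these were chosen by name and read from the same libraries. The intervals therefore test no difference between gene sets. In bulk cells, a mark carried by fewer cells and a mark that is weaker in each cell cannot be told apart.

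The mitosis genes kept H3K4me3 at their starts while the mark drew back from their gene bodies, most of all in myotubes. All 36 had an H3K4me3 peak within 1 kb of a transcript start at day 0, at day 1 and in reserve cells, and 35 did in myotubes. The exception was Ccnb2, which encodes cyclin B2. Of the 12403 protein-coding genes with promoter H3K4me3 at day 0, promoter peaks were missing from 1.86% at day 1, from 2.77% in myotubes and from 4.12% in day 5 reserve cells. Breadth, the number of bases that H3K4me3 peaks cover up to 5 kb either side of the 5′ end of a gene, had a median over the mitosis genes of 3648 bp at day 0, 3045 bp at day 1, 1814 bp in day 5 myotubes and 2367 bp in day 5 reserve cells. Over all marked protein-coding genes the medians were 2799, 2518, 2486 and 2169 bp in the same order. The mitosis genes were thus broader than the median gene at day 0, and in myotubes narrower.

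In myotubes 31 of the 36 genes (86.1%, interval 70.5 to 95.3%) had a breadth at least 1.5-fold below that of day 0, against 15.2% of the 12021 marked genes with a breadth at day 0. The median ratio of myotubes to day 0 was 0.50 over the mitosis genes and 0.891 over all marked genes. All 36 had fewer bases in myotubes than at day 0, as did 69.7% of all marked genes. In reserve cells 22 of 36 (61.1%, interval 43.5 to 76.9%) were narrower by 1.5-fold or more, against 22.4% of marked genes, with median ratios of 0.652 and 0.780. At day 1 the count was 3 of 36, against 6.54%, with median ratios of 0.818 and 0.905. Breadth was below that of day 0 by any amount at 34 of 36 at day 1 and at all 36 in reserve cells, against 80.3% and 94.3% of marked genes. None of the 36 was 1.5-fold or more broader than at day 0, against 0.94% of marked genes at day 1, 5.98% in day 5 myotubes and 0.632% in day 5 reserve cells. These 3 comparisons share the day 0 library.

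The reserve cell count depended on how the ratio was taken. After division by the median ratio of all marked genes, 6 of 36 mitosis genes were at least 1.5-fold narrower in reserve cells, beside 8.91% of all marked genes, and within 2 kb of the 5′ end 9 of 36 were, beside 16.9%. The myotube count was within 1.5 times its value in both settings. With a limit of 2-fold in place of 1.5-fold, 18 mitosis genes were narrower in myotubes, 5 in reserve cells and none at day 1, beside 6.69%, 8.21% and 2.90% of marked genes. Peak heights differed between the libraries as well. The median fold enrichment of the mitosis genes' promoter peaks, the authors' ratio of pileup to local background, was 54.6 at day 0, 55.7 at day 1, 26.1 in day 5 myotubes and 42.1 in day 5 reserve cells, and over all peaks of those lists 29.0, 38.6, 9.55 and 39.8. The median peak width of the whole lists was 1936, 1869, 1217 and 1729 bp. The part of peak height and of list-wide width in the narrowing was not tested.

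**Figure D1:**
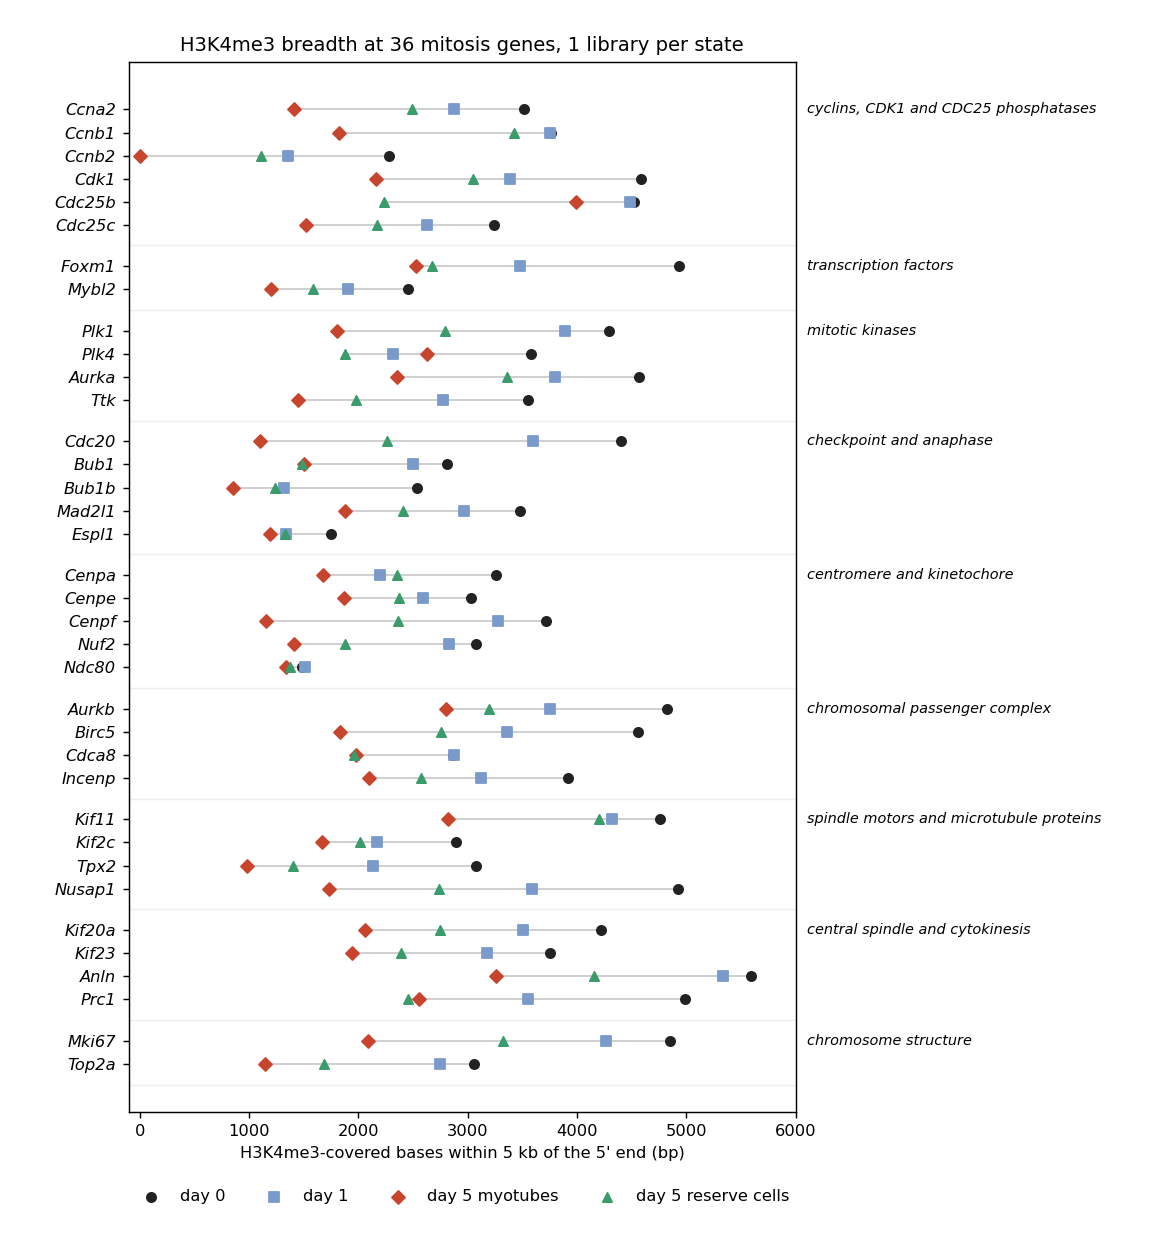
H3K4me3-covered bases within 5 kb of the 5′ end (horizontal axis, bp) for each of the 36 mitosis genes, grouped by role, with 1 symbol per library: circle for day 0, square for day 1, diamond for day 5 myotubes and triangle for day 5 reserve cells. The myotube symbol is the leftmost at 31 of 36 genes, and Ccnb2 stands at 0 in myotubes.

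Myotubes differed from reserve cells of the same day in the direction opposite to most genes. Directly compared, 9 of 36 mitosis genes (25%, interval 12.1 to 42.2%) were at least 1.5-fold narrower in myotubes than in reserve cells, against 3.63% of 11559 marked genes. The median ratio of myotubes to reserve cells was 0.741 over the mitosis genes and 1.13 over all marked genes. Relative to that background median, 19 of 36 passed the limit, beside 5.24% of all marked genes, and with a limit of 2-fold 3 passed, beside 2.04%. Breadth was lower in myotubes than in reserve cells at 31 of 36 mitosis genes and at 25.6% of marked genes. The full order of day 0 above day 1, day 1 above reserve cells and reserve cells above myotubes held at 29 of 36 mitosis genes (80.6%) and at 15.1% of all marked genes. Reserve cells had the lowest breadth of the 4 groups at 63.2% of all marked genes and at 5 of the 36, namely Cdc25b, Plk4, Bub1, Prc1 and Cdca8.

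In both day 5 fractions more bases were lost on the gene side of the start than upstream of it, and the difference was larger in myotubes. Downstream of the 5′ end the mitosis genes had a median of 2527.5 bp under H3K4me3 at day 0, 1902 bp at day 1, 794 bp in day 5 myotubes and 1448.5 bp in day 5 reserve cells. Upstream the medians were 1053.5, 911.5, 848 and 810 bp. In myotubes 33 of 36 were at least 1.5-fold lower downstream, against 18.1% of marked genes, while 9 of the 35 with any upstream mark at day 0 were lower upstream, against 21%. The median downstream ratio of myotubes to day 0 was 0.357 over the mitosis genes and 0.895 over all marked genes, and the median upstream ratio 0.785 and 0.880.

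In reserve cells 23 of 36 (63.9%, interval 46.2 to 79.2%) were lower downstream by 1.5-fold or more, against 23.1% of marked genes. Upstream 17 of 35 were (48.6%, interval 31.4 to 66.0%), against 33.8% of marked genes, a smaller difference than downstream. The median ratios of reserve cells to day 0 were 0.594 downstream and 0.668 upstream over the mitosis genes, and 0.797 and 0.756 over all marked genes. At day 1 the counts were 4 of 36 downstream, against 7.55%, and 7 of 35 upstream, against 15.7%. Between the day 5 fractions, 25 of 36 were at least 1.5-fold lower downstream in myotubes than in reserve cells, against 5.04% of marked genes, and 3 of 35 upstream, against 5.37%. The median ratio of myotubes to reserve cells was 0.552 downstream and 1.05 upstream. Of the 30 genes that were narrower in myotubes and still marked, 28 (93.3%) had lost more bases downstream than upstream relative to day 0. So had 77.9% of the marked genes that were narrower. In reserve cells 20 of the 22 narrower genes (90.9%) had, beside 73.7% of the narrower marked genes. The median loss since day 0 was 1678 bp downstream and 145.5 bp upstream in myotubes, and 951.5 and 274.5 bp in reserve cells. Over all marked genes the losses were 157 and 76 bp in myotubes and 334 and 196 bp in reserve cells. The mitosis genes had more marked bases downstream than upstream at day 0. An equal share lost on both sides would therefore also remove more bases downstream.

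**Figure D2:**
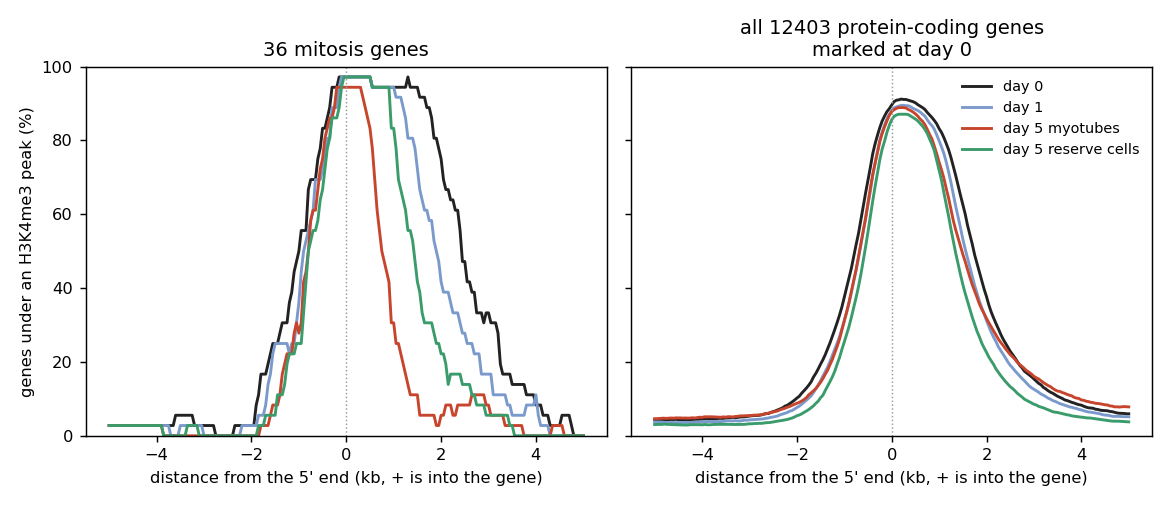
Share of genes (vertical axis, percent) under an H3K4me3 peak at each distance from the 5′ end (horizontal axis, kb, positive into the gene) for the 36 mitosis genes (left) and all 12403 protein-coding genes marked at day 0 (right), with 1 line per library. At +1 kb 11 of the 36 are covered in myotubes, against 30 in reserve cells, while the 4 lines of all marked genes lie between 72.0 and 83.2% there.

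At 1 kb into the gene 34 of the 36 were under a peak at day 0, 34 at day 1, 11 in day 5 myotubes and 30 in day 5 reserve cells. The shares of all marked genes there were 83.2, 79.9, 74.1 and 72.0%. At 2 kb the mitosis counts were 27, 15, 2 and 8 of 36, beside 37.7, 31.2, 31.8 and 22.6% of all marked genes. At 1 kb upstream they were 18, 13, 10 and 9 of 36, beside 37.5, 31.3, 30.9 and 25.4%. The downstream edge of the promoter peak lay at a median of 2425.5 bp at day 0, 1901 bp at day 1, 814 bp in day 5 myotubes and 1447.5 bp in day 5 reserve cells, and the summit at 806, 311, 114 and 233.5 bp. The summit thus lay farthest into the gene at day 0 and nearest to the start in myotubes.

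**Figure D3:**
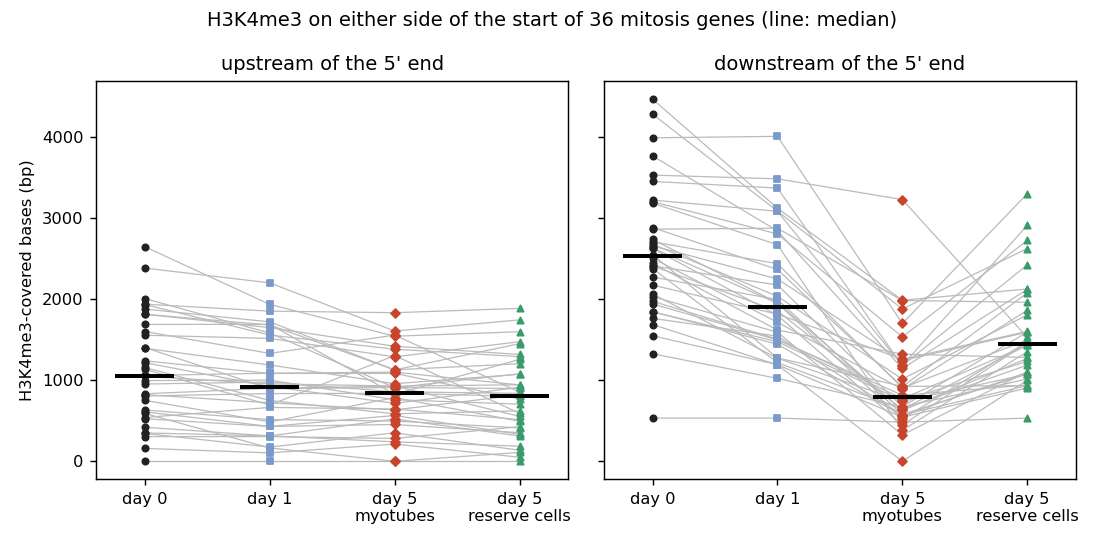
H3K4me3-covered bases (vertical axis, bp) upstream (left) and downstream (right) of the 5′ end of the 36 mitosis genes in the 4 libraries. Each grey line is a gene and the black bars are medians: downstream they run 2527.5, 1902, 794 and 1448.5 bp, upstream 1053.5, 911.5, 848 and 810 bp.

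The promoters of 7 members are shown because they hold the gene that lost its peak (Ccnb2), the lowest ratio of myotubes to day 0 within 5 kb among genes that kept one (Cdc20), MBD2 peaks at day 0 (Cdk1, Top2a and Aurka) and the members whose breadth held in myotubes (Ndc80 and Cdc25b). Each is the RefSeq promoter of build GRCm38.p6, 250 bases before the start and 50 after it, written 5′ to 3′ on the strand of the gene. Capitals mark TTTGAA and TTTAAA, forms of the CHR, and CCAAT, the NF-Y box, on either strand (TTCAAA and ATTGG are the reverse forms, and TTTAAA reads the same on both). No match overlaps another in these 7. They lie at chr9:70421505-70421804 (Ccnb2, minus strand), chr4:118437294-118437593 (Cdc20, minus), chr10:69352863-69353162 (Cdk1, minus), chr11:99024140-99024439 (Top2a, minus), chr2:172370521-172370820 (Aurka, minus), chr17:71526808-71527107 (Ndc80, minus) and chr2:131186698-131186997 (Cdc25b, plus).
Ccnb2: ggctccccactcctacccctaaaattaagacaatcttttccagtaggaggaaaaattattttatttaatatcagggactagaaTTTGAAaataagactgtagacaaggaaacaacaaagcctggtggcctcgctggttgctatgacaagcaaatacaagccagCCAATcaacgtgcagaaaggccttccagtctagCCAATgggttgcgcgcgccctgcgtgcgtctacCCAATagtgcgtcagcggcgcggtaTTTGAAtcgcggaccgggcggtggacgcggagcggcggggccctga
Cdc20: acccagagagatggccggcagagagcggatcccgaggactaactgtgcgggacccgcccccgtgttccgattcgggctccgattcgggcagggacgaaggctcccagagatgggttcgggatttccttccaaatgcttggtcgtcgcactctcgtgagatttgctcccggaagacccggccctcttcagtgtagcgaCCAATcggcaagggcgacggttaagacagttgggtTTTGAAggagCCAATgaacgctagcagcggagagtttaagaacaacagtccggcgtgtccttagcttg
Cdk1: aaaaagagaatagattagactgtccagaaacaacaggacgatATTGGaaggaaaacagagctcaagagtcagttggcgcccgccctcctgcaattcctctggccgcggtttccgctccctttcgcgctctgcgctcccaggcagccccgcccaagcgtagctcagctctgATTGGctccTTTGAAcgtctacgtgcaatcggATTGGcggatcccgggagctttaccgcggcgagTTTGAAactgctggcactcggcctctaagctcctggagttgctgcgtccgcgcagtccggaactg
Top2a: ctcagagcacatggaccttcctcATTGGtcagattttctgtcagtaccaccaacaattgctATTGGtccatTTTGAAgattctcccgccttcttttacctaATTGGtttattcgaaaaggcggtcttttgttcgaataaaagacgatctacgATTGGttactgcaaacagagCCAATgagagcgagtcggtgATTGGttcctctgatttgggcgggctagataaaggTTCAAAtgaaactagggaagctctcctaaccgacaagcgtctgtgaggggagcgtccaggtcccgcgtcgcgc
Aurka: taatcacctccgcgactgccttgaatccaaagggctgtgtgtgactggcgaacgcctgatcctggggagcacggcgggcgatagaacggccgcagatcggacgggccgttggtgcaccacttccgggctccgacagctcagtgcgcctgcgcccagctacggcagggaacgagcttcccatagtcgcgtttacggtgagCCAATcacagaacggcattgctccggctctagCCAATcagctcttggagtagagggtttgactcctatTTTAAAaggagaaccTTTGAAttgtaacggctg
Ndc80: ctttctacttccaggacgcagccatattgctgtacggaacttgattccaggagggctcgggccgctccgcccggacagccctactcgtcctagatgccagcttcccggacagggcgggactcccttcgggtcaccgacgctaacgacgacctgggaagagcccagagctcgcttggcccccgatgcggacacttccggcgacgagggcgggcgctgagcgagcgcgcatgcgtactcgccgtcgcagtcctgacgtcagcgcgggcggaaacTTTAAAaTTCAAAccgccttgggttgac
Cdc25b: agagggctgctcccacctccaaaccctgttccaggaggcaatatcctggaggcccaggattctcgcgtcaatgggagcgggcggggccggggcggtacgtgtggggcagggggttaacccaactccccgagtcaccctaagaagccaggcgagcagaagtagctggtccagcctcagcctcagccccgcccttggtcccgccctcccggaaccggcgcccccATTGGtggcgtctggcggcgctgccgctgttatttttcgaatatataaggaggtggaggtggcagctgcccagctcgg

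RefSeq promoters were matched for 29 of the 36 members, with no entry used for Ccna2, Cdc25c, Aurkb, Foxm1, Kif20a, Tpx2 and Incenp. Of the 29, 27 start within 1 kb of the annotated 5′ end. The exceptions, Cdca8 (2394 bp away) and Kif2c (3867 bp away, with 2 CpGs), both hold TTTGAA and are counted below. TTTGAA occurred in 19 of 29 (65.5%), against 11.2% of the 9689 promoters of marked protein-coding genes. TTTAAA occurred in 10 of 29 (34.5%), against 8.69%, and CCAAT in 20 of 29 (69.0%), against 39%. Both TTTGAA and CCAAT were found in 16 of 29 (55.2%), against 4.84%. The E2F-type motif TTTNNCGC was found on either strand in 2 of 29 (6.90%), Cdk1 and Espl1, against 9.14%. The median number of CpGs per promoter was 24, against 22 over all promoters.

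Breadth was set beside these motifs. The median ratio of myotubes to day 0 breadth was 0.511 for the 19 mitosis genes with TTTGAA and 0.512 for the 10 without it. Among the other marked genes, 18.9% of 1024 with TTTGAA were at least 1.5-fold narrower in myotubes, against 13.9% of 8338 without it, with median ratios of 0.863 and 0.899. With TTTGAA and CCAAT together the mitosis genes had a median ratio of 0.451 over 16 genes, against 0.539 over the 13 others. In reserve cells the same split gave 0.644 and 0.647. Among the other marked genes it gave 0.858 and 0.897 in myotubes. Ndc80, which has TTTAAA and the reverse form of TTTGAA side by side just after its start, had a ratio of 0.902. Cdc20, with 1 TTTGAA and 2 CCAAT boxes, had the lowest ratio of any member that kept its peak within the 5 kb used here. A match is a description of these letters and says nothing of a bound factor.

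The mitotic cyclins and Cdk1, the kinase they activate, drive entry into mitosis, and CDC25 phosphatases remove the inhibitory phosphates from Cdk1. Of these 6 genes, 5 were at least 1.5-fold narrower in myotubes, though Cdk1 was not within 2 kb of its 5′ end (ratio 0.937) and Cdc25c not within 10 kb (0.722). Ccnb2 (chromosome 9, 70407692 to 70421547, minus strand) had 2277 bp at day 0, 1355 bp at day 1, 0 in day 5 myotubes and 1111 bp in day 5 reserve cells. Its peak had a fold enrichment of 48.5 at day 0, 15.8 at day 1 and 5.55 in reserve cells, so it was already the weakest member peak in the reserve cell list. With peaks of −log10 q of 10 or more alone, Ccnb2 had no promoter peak in reserve cells either. Ccnb1, the other B-type cyclin of the set, kept a promoter peak in all 4 libraries: it had 3762, 3749, 1827 and 3426 bp, again for day 0, day 1, myotubes and reserve cells. The myotube value was the one that stood apart.

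Ccna2, cyclin A2, had 3516 bp at day 0, 2880 bp at day 1, 1416 bp in day 5 myotubes and 2489 bp in day 5 reserve cells. Cdk1 (chromosome 10, 69335146 to 69352938, minus strand) had 4282 bp of the mark downstream of its start at day 0, 3085 bp at day 1, 1879 bp in day 5 myotubes and 2624 bp in day 5 reserve cells, and 305, 305, 282 and 427 bp upstream. Its loss was nearly all on the gene side. Cdc25c, with 3240, 2632, 1519 and 2171 bp, followed the same order. Cdc25b went against it, with 4526 bp at day 0, 4485 bp at day 1, 3988 bp in day 5 myotubes and 2234 bp in day 5 reserve cells, and it was the only member at least 1.5-fold broader in myotubes than in reserve cells (ratio 1.78), beside 14.8% of marked genes. Its promoter peak alone measured 2310 bp in day 5 myotubes and 2234 bp in day 5 reserve cells, against 4526 bp at day 0, and the other myotube bases lay in peaks farther into the gene.

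The transcription factors of the set were narrower in both day 5 fractions. Foxm1 (chromosome 6, 128362967 to 128376146, plus strand), the forkhead activator of late cell cycle genes, had 2550 bp downstream of its start at day 0, 1275 bp at day 1, 924 bp in day 5 myotubes and 933 bp in day 5 reserve cells. Its downstream ratio of day 1 to day 0, 0.50, was the lowest of the 36. Mybl2, the B-Myb subunit that joins MuvB, had a breadth of 2452, 1906, 1200 and 1586 bp in the same order. The myotube peak of Mybl2 was weak, with a fold enrichment of 5.47, and it dropped out when peaks of −log10 q under 10 were left out or lists of equal length were used.

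Among the mitotic kinases, Plk1 and Aurka act on centrosomes and spindle, Ttk (Mps1) starts the spindle checkpoint, and Plk4 drives centriole duplication. Plk1 had 4289 bp at day 0, 3895 bp at day 1, 1801 bp in day 5 myotubes and 2796 bp in day 5 reserve cells. Aurka (chromosome 2, 172356190 to 172370535, minus strand) had 2632, 1949, 521 and 1474 bp downstream in the same order, and 1938, 1852, 1833 and 1886 bp upstream. The upstream side, which held almost the same number of bases in all 4 libraries, contains the start of Cstf1, a gene of mRNA 3′ end formation that is read the opposite way from position -146. Plk4 was the exception among the kinases, with 3576, 2313, 2626 and 1874 bp, and was broader in myotubes (2626 bp) than at day 1 and in reserve cells. Plk4 was 1 of the 3 genes past the limit at day 1 (ratio 0.647), with Bub1b (0.521) and Ccnb2 (0.595).

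Of the 5 checkpoint and anaphase genes, Bub1, Bub1b and Mad2l1 encode checkpoint proteins that restrain Cdc20, the activator of the anaphase-promoting complex, and Espl1 encodes separase, which cuts cohesin. Cdc20 (chromosome 4, 118432901 to 118437352, minus strand) had a breadth of 4401 bp at day 0, 3594 bp at day 1, 1097 bp in day 5 myotubes and 2266 bp in day 5 reserve cells. Downstream of its start it had 3185, 2671, 382 and 1353 bp, so the myotube peak reached only a short way into the gene. Its ratio of myotubes to day 0, 0.249, was the lowest of the members that kept a peak in this window. Within 10 kb it was 0.504, near the median of 0.512 over the members. Cenpf (0.310), Tpx2 (0.318), Bub1b (0.338), Mki67 (0.430), Kif20a (0.488) and others were lower. Bub1b had 2537, 1321, 857 and 1236 bp, and most of its loss was present at day 1. Bub1 had 2811 and 2499 bp at day 0 and day 1, then 1501 bp in day 5 myotubes and 1488 bp in day 5 reserve cells, so the day 5 fractions did not part. Mad2l1 ran 3481, 2971, 1876 and 2411 bp. Espl1, whose mark was short throughout at 1746, 1336, 1193 and 1327 bp, lay just outside the limit in myotubes with a ratio of 0.683.

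The 5 centromere and kinetochore genes split. Cenpf, a large kinetochore protein, had 3720 bp at day 0, 3282 bp at day 1, 1152 bp in day 5 myotubes and 2362 bp in day 5 reserve cells, and Nuf2, a subunit of the NDC80 complex that grips microtubules, had 3079, 2830, 1416 and 1878 bp. Ndc80 (chromosome 17, 71496100 to 71526857, minus strand), the partner of Nuf2 in that complex, had 1486, 1511, 1340 and 1371 bp, the narrowest range of the 36. Its downstream mark was 533 bp at day 0, day 1 and in reserve cells and 483 bp in myotubes, so its called peak never extended far into the gene. The gene-side edge was the same base, 71526325, at day 0, day 1 and in reserve cells. What sets that edge was not tested, so the steady breadth of Ndc80 may not reflect a mark that was kept. Cenpa, the centromeric histone H3, had ratios of 0.675 at day 1, 0.514 in day 5 myotubes and 0.724 in day 5 reserve cells. Cenpe, a kinetochore motor, was among the members nearest the limit in myotubes at 0.618.

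Aurkb, Birc5 (survivin), Incenp and Cdca8 (borealin) form the chromosomal passenger complex, which corrects faulty spindle attachments. Birc5 had 2625 bp downstream of its start at day 0, 1802 bp at day 1, 447 bp in day 5 myotubes and 1464 bp in day 5 reserve cells, and Incenp 2676, 2035, 1014 and 1806 bp. The Aurkb window also held bases of a peak upstream of the gene, and its promoter peak itself measured 3021, 2489, 1699 and 2088 bp. Cdca8 had 2863, 2875, 1983 and 1962 bp, with nearly equal values in myotubes and reserve cells. The 5′ end of its annotated gene lies 2394 bp from the nearest transcript start used, so its peak counted wholly as downstream.

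The spindle motors and microtubule proteins were narrower in myotubes at 4 of 4 genes, though Kif11 was not within 2 kb (ratio 0.794) and Kif2c not within 10 kb (0.714). Tpx2, which activates Aurka on the spindle, had 3080 bp at day 0, 2131 bp at day 1, 979 bp in day 5 myotubes and 1405 bp in day 5 reserve cells. Nusap1, a microtubule-bundling protein, had 4923, 3592, 1731 and 2742 bp, and its start lies 171 bp from that of Oip5, a centromere gene read the opposite way, so the same peaks served both genes. Kif11, the motor that pushes spindle poles apart, kept more than most, with 4758, 4320, 2822 and 4199 bp. Its reserve cell ratio of 0.883 was exceeded by Ccnb1 (0.911) and Ndc80 (0.923) alone. Kif2c, a microtubule depolymerase, had ratios of 0.575 in day 5 myotubes and 0.697 in day 5 reserve cells.

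The central spindle and cytokinesis genes included Anln, which had the broadest day 0 peak of the set. All 4 were narrower by 1.5-fold or more in myotubes, though Anln was not within 2 kb (ratio 0.816). Anln, anillin of the contractile ring, had 5591 bp at day 0, 5339 bp at day 1, 3257 bp in day 5 myotubes and 4153 bp in day 5 reserve cells. Prc1, which bundles the central spindle, had 4992, 3552, 2551 and 2458 bp, and its promoter peak alone 3788, 3257, 1580 and 2458 bp, so the myotube and reserve cell values were close only when separate peaks inside the gene were counted. The kinesins Kif20a and Kif23 had myotube ratios of 0.488 and 0.517 and reserve cell ratios of 0.651 and 0.637.

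Mki67, which encodes the proliferation marker Ki-67 that coats mitotic chromosomes, had 4855 bp at day 0, 4265 bp at day 1, 2089 bp in day 5 myotubes and 3320 bp in day 5 reserve cells. Top2a (chromosome 11, 98992943 to 99024189, minus strand), topoisomerase II alpha, had 2708, 2437, 905 and 1496 bp downstream of its start. Both genes ran in the order of day 0, day 1, reserve cells and myotubes. Around the limits, Kif11 (0.593) and Cenpe (0.618) were the last inside in myotubes, and Espl1 (0.683) and Cdca8 (0.693) the first outside. In reserve cells Aurkb (0.664) and Cdk1 (0.665) were just inside and Cdc25c (0.670) and Mki67 (0.684) just outside.

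Several members share their promoter window with a neighbour, and the bases counted there may belong to either gene. Foxm1 lies beside Rhno1, Kif20a beside Brd8, Aurka beside Cstf1, Nusap1 beside Oip5 and Cdc25b beside Spef1, all protein-coding and read the opposite way. At Kif20a the upstream side, with Brd8, had 1814 bp at day 0, 1649 bp at day 1, 1419 bp in day 5 myotubes and 1318 bp in day 5 reserve cells. The Kif20a side had 2409, 1855, 641 and 1433 bp. Noncoding or pseudogene starts lie within 1 kb of the starts of Cdc25c, Plk1, Ndc80, Espl1 and Incenp.

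**Figure D4:**
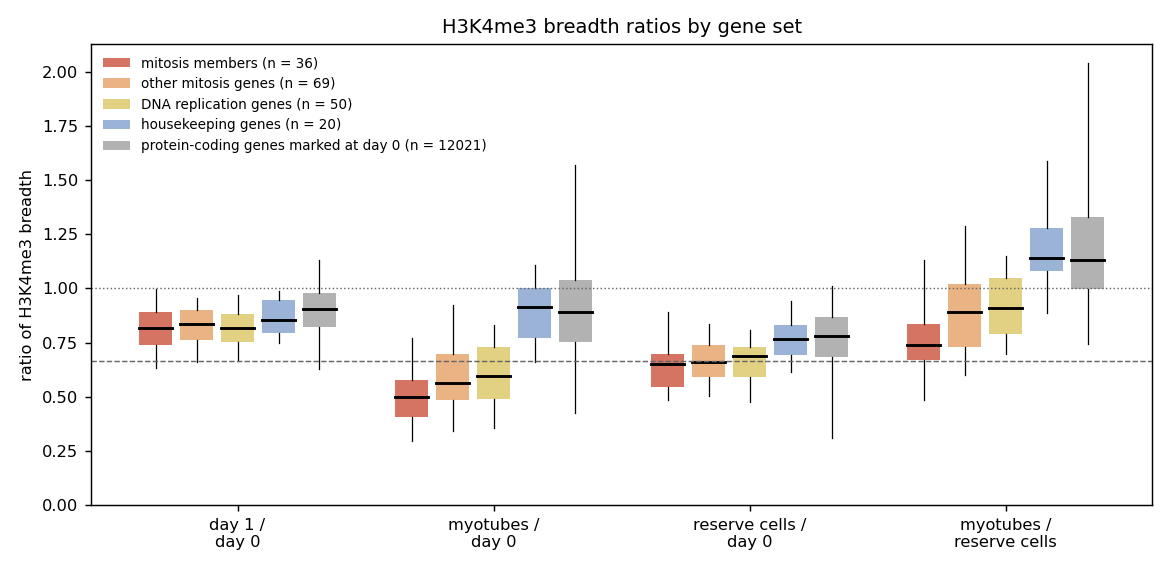
Ratios of H3K4me3 breadth (vertical axis) in 4 comparisons for the 36 mitosis genes, 69 other mitosis genes, 50 DNA replication genes, 20 housekeeping genes and the protein-coding genes marked at day 0 (12021 with a ratio over day 0, 11559 over reserve cells). Boxes span the middle 50% of genes, the black line is the median, whiskers reach the 5th and 95th percentiles and the dashed line is the 1.5-fold limit, and in the last comparison the mitosis median is 0.741 against 1.13 for marked genes.

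Other mitotic genes were looked at through a list of 69. Of these, 44 were at least 1.5-fold narrower in myotubes than at day 0 (median ratio 0.565), 35 in reserve cells (0.663) and 9 in myotubes relative to reserve cells (0.892). The shares of all marked genes were 15.2%, 22.4% and 3.63% in the same order. Of 50 DNA replication genes the counts were 32, 23 and 1, with medians of 0.596, 0.689 and 0.912. Of 20 housekeeping genes they were 2, 2 and 0, with medians of 0.917, 0.765 and 1.14. Between the day 5 fractions the medians were thus 0.741 for the 36 mitosis genes, 0.892 for the other mitosis genes, 0.912 for replication and 1.14 for housekeeping genes. The gene-side loss was not particular to the 36. Median ratios of myotubes to day 0 downstream and upstream were 0.466 and 0.848 for the other mitosis genes. They were 0.475 and 0.817 for replication and 0.905 and 0.982 for housekeeping genes. The full order of the 4 groups held at 65.2%, 58.0% and 15.0% of these lists.

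The lowest ratios of myotubes to day 0 among the other mitosis genes were those of Pbk (0.216), a mitotic kinase, Ska1 (0.217), of the kinetochore SKA complex, Pimreg (0.263), Fbxo5 (0.333), an inhibitor of the anaphase-promoting complex, and Oip5 (0.352). The highest were those of Racgap1 (1.01), Mastl (1.00), Spag5 (1.00), Cdca2 (0.927) and Cenpt (0.920). Racgap1 encodes the partner of Kif23 in centralspindlin: it had 4557 bp at day 0, 4195 bp at day 1, 4611 bp in day 5 myotubes and 2941 bp in day 5 reserve cells, while Kif23 had 3755, 3179, 1942 and 2392 bp. Kif14 was the one gene of that list without a promoter peak in myotubes, though peaks elsewhere within 5 kb of its 5′ end covered 1323 bp there. Among replication genes the lowest were Clspn (0.333), which encodes the checkpoint mediator claspin, and Tk1 (0.339), thymidine kinase, and the highest Cdc45 (0.867), a helicase subunit.

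With the deposited lists, the share of mitosis promoters with MBD2 at day 0 was near that of all marked promoters. At day 0, 7 of 36 (19.4%, interval 8.19 to 36%) had an MBD2 peak within 1 kb of a start, against 19% of marked protein-coding genes. At day 1 only Aurka did, at a promoter shared with Cstf1, 1 of 36 against 1.69%. In myotubes and reserve cells none did, which allows a share of up to 9.74% by the same interval, against 0.976% and 0.355% of marked genes. The later MBD2 lists were far shorter, so a missing call there does not show whether binding was lost. Counting peaks within 5 kb of the 5′ end, 9 of 36 had MBD2 at day 0, against 23.5%. A day 0 peak overlapped the gene itself at 4 of 36, against 28.3%. Of these only the Prc1 peak had its summit inside the gene. Those of Ccna2, Cdk1 and Mad2l1 were promoter peaks that reached past the 5′ end.

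The MBD2 peaks were small. The authors' fold enrichments at day 0 were 9.31 at Cdk1, 7.35 at Top2a, 6.37 at Aurka, 5.02 at Kif2c, 4.74 at Anln, 4.47 at Ccna2 and 3.67 at Mad2l1, with 5 to 12 fragments over the summit. The median over the 2358 marked genes with promoter MBD2 was 5.88, so Cdk1 (percentile 77.9) and Top2a (67.6) lay above it, Aurka (51.9) near it and the other 4 below. The Cdk1 peak (chr10:69352689-69353260) covered the start, with its summit at -91 bp, inside the promoter printed above. Those of Top2a, Aurka and Kif2c had summits at -168, -211 and -165 bp. The day 1 peak of Aurka had its summit at -220 bp with a fold of 4.49. Both Aurka peaks covered the Cstf1 start at -146 bp, with summits on the Cstf1 side of it, so they may belong to either gene. The Anln peak lay farther out, with its near edge 947 bp from the start. Aurkb and Prc1 had peaks 2958 and 2828 bp from the nearest start, with folds of 4.41 and 5.74. All 10 of these MBD2 peaks overlapped an H3K4me3 peak of the same state. All 36 members had promoter H3K4me3 at day 0 and day 1, so overlap of the promoter peaks was close to given. No share over all MBD2 peaks is given beside it.

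**Figure D5:**
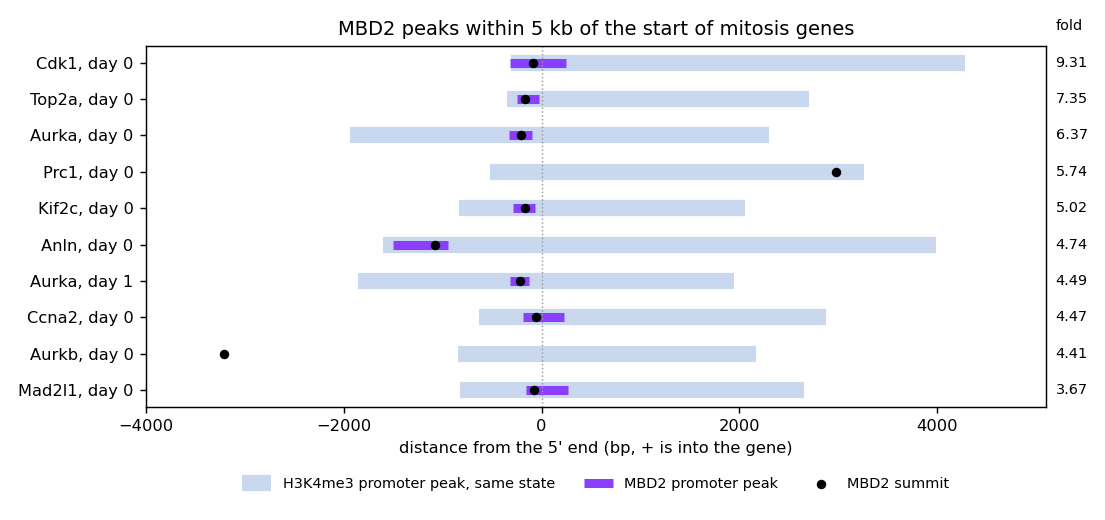
MBD2 peaks within 5 kb of the 5′ end of mitosis genes (horizontal axis, bp, positive into the gene), with MBD2 promoter peaks in purple, MBD2 summits as black dots, the H3K4me3 promoter peak of the same state in pale blue and the authors' fold enrichment at the right. The Cdk1, Top2a, Aurka and Kif2c summits lie between -220 bp and the start, and those of Aurkb and Prc1 at -3213 and 2974 bp.

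The calls depended on the threshold. With a fold enrichment of at least 5, the members with promoter MBD2 at day 0 numbered 4 (11.1%), against 14.4% of marked genes. With a −log10 q of at least 10 only Cdk1 was left (2.78%), against 5.41%. Among the 111 strongest peaks of each list, the length of the reserve cell list, there was none, against 0.521%. The myotube to day 0 ratio of H3K4me3 breadth had a median of 0.515 over the 7 genes with MBD2 at day 0 and 0.489 over the 29 without. Cdca2 and Cdca3, both outside the 36, carried stronger MBD2 peaks: Cdca2 had folds of 69.85 at day 0, 26.4 at day 1, 4.47 in day 5 myotubes and 8.73 in day 5 reserve cells, and Cdca3 had 14.0 at day 0, 6.73 at day 1 and 4.19 in reserve cells. Of the other mitosis genes 23 of 69 (33.3%) had promoter MBD2 at day 0, against 19% of all marked genes. So did 14 of 50 DNA replication genes (28%) and 6 of 20 housekeeping genes (30%). A share above that of all marked genes was therefore not particular to the list of other mitosis genes.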

How the data were processed

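MBD2 and H3K4me3 CUT&RUN peak lists of C2C12 cells were used, 1 library per antibody and state (8 libraries). The design text and the submitters' processing notes name Trim Galore for trimming, Bowtie2 with mm10 for mapping, SAMtools for filtering and MACS2 for peaks. The sources used here give no versions or MACS2 settings, and not whether IgG served as control or a later filter was applied. Pileup is the authors' signal, the number of fragments over a summit. Fold enrichment is the authors' ratio of pileup over local background, and its column is named in the file headers. Of the deposited columns, those of the −log10 p-value and of the −log10 q-value have damaged names and were identified by their place and values. Peak length is in bases, per the file headers.

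The gene models were those of GENCODE M21, basic set (55413 genes). A promoter is 1 kb either side of any transcript start, called by an overlap of at least 1 bp, and breadth is the peak-covered bases up to 5 kb either side of a gene's 5′ end. Narrower means at least 1.5-fold fewer bases. Ratios took genes with bases in the library divided by. Computation used Python 3.11.15, numpy 2.4.6, pandas 2.3.3 and SciPy 1.17.1, and counting was tested on simulated peaks. The members and lists were chosen with earlier results of these data known. Named were all 36 members, their neighbours and, of other lists, genes that lost a promoter peak, had later MBD2 or had the 5 lowest or highest ratios of myotubes to day 0, of which examples are given. In all, 16 alternatives were computed.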

Additional observations from a re-analysis of the deposited data

How the results depend on the processing

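The median breadth ratios of members to day 0 stayed below 1 in every alternative that gives them. The median upstream ratio of myotubes to reserve cells, 1.05, fell below 1 relative to all marked genes (0.936). In all, 16 alternatives were run, 14 of them planned and 2 (the comprehensive annotation and the start with the most day 0 H3K4me3) chosen after seeing the data. Over all alternatives 233 summary values stayed near the main value and 35 moved. No paired analysis was possible because each group has 1 library per antibody, and for the same reason no replicate could be left out. With lists of equal length MBD2 promoter calls were 0 at day 0 (0.521% of marked genes) and 0 at day 1, and 2 members lost the H3K4me3 peak in myotubes. With −log10 q of 10 or more MBD2 calls were 1 at day 0 (marked genes 5.41%) and 0 at day 1, 5 members were narrower at day 1 (marked genes 5.69%), and 2 lost the peak in myotubes and 1 in reserve cells. With fold enrichment of 5 or more MBD2 calls were 4 at day 0 (marked genes 14.4%) and 0 at day 1, and 5 members were narrower at day 1 (marked genes 5.91%). With an overlap of 200 bp MBD2 calls at day 1 were 0. Within 2 kb of the 5′ end the median breadth was 2841.5 bp at day 0 and 2612.5 bp at day 1, the median ratio to day 0 was 0.899 at day 1, 0.592 in myotubes and 0.721 in day 5 reserve cells, the downstream ratio was 0.976, 0.448 and 0.734, and 9 members were narrower in reserve cells (marked genes 16.9%). A 2 kb window leaves out the part of broad day 0 peaks that lies beyond it. Relative to all marked genes the median ratio to day 0 was 0.904 at day 1, 0.561 in myotubes and 0.835 in day 5 reserve cells, upstream 0.985 at day 1 and 0.883 in reserve cells, downstream 0.745 in reserve cells, and 6 members were narrower in reserve cells (marked genes 8.91%). On the same scale myotubes over reserve cells gave a median of 0.658, upstream 0.936, and 19 narrower members (marked genes 5.24%). With a 2-fold limit 0 members were narrower at day 1 (marked genes 2.90%), 18 in myotubes (6.69%), 5 in reserve cells (8.21%) and 3 in myotubes over reserve cells (2.04%). Against protein-coding genes with 2 to 6 kb of H3K4me3 at day 0, the background shares of narrower genes were 3.08% at day 1, 12.3% in myotubes and 17.7% in day 5 reserve cells. Without read totals depth could not be equalised, and the cause of each shift was not tested unless stated.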
